A study of Homo sapiens with 4 samples.

Results

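The 37 genes described here are 18 glycolytic enzymes, 3 glucose and lactate transporters and 16 other genes known to be induced through the hypoxia-inducible factors (HIF). They were read from 1-colour Agilent arrays of Hep3B cells, a human hepatocellular carcinoma line, by taking every probe whose gene name on the array is a listed member and keeping, per gene, the probe with the highest mean log2 signal. All 37 were found among the 34809 gene names on the array, PKM under its older symbol PKM2 and ERO1A as ERO1L. The study compared cells transfected with pLKO.1 plasmids that express a mock hairpin RNA (shR-MOCK) with cells given a hairpin for UNC50 knockdown, either shR-467, shR-554 or shR-749, all kept in puromycin at 1 µg/ml, and asked which transcripts differ when UNC50, a membrane protein gene examined for its part in this cancer, is knocked down. Each plasmid was measured on 1 array. The 3 hairpins are different reagents for 1 target and served as the replicates of UNC50 knockdown, so their spread holds hairpin-specific effects, and with 1 mock array the spread between control cultures is unknown. Nothing in the labels describes separate cultures, so the p-values measure only the spread between these 3 arrays. For each gene limma takes that spread in part from all genes tested, not from the gene's own 3 values alone. The labels name no oxygen treatment.

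Glycolysis splits glucose into pyruvate in a chain of cytosolic steps, and lactate dehydrogenase turns pyruvate into lactate when flux is high or oxygen is short. HIF is a dimer of an oxygen-sensitive alpha subunit (HIF1A or EPAS1) and ARNT. In oxygen, prolyl hydroxylases of the EGLN family mark the alpha subunit for destruction by the VHL ubiquitin ligase, and in hypoxia the surviving dimer binds short DNA elements with the core ACGTG or GCGTG near genes for glycolysis, angiogenesis, pH control and mitophagy. Liver tumours, and Hep3B cells in particular, are a classical setting in which this response was studied through erythropoietin.

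The HIF core letters were searched on both strands of RefSeq promoters (GRCh38.p14), each running from 250 bases before to 50 bases after the gene's start. Promoters were found for 33 members and not for SLC2A3, VEGFA, BNIP3L and NDRG1. Of the 33, 23 (69.7%) held ACGTG or GCGTG, against 48.4% of all 35116 promoters. ACGTG, with or without GCGTG, was in 42.4% of the members' promoters and 21.4% of all. GCGTG, with or without ACGTG, was in 45.5% and 36.5%. By group, 13 of 18 enzymes (72.2%) and 9 of 13 other HIF targets (69.2%) held either. The motifs can share a base, and CACGTG holds ACGTG on both strands, but each promoter was counted once. Such a match is a description of sequence and no evidence of binding. Printed below are the 250 bases before the start of 4 members named in full further on, because the same core letters stand before genes that read above the mock array with every hairpin (CA9, PFKFB4) and before genes that read below it (ERO1L, ENO2). Capitals mark the core on either strand, so that CACGT and CACGC are the cores read from the opposite strand. The first marked base lies 18 bases before the start in CA9 (chr9:35673678-35673927, plus strand), 166 in PFKFB4 (chr3:48556804-48557053, minus strand), 170 and 114 in ERO1L (chr14:52695559-52695808, minus strand) and 118 in ENO2 (chr12:6914330-6914579, plus strand). Within the same 250 bases EGLN3 and SLC2A1 hold neither core. In the 50 bases after the start SLC2A1 holds GCGTG, so it is among the 23, and ERO1L holds a further GCGTG.
CA9: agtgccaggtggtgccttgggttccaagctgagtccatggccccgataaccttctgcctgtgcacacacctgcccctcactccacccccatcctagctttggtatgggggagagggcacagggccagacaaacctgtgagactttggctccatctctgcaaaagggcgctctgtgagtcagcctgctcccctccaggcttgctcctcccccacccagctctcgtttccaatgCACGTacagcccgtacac
PFKFB4: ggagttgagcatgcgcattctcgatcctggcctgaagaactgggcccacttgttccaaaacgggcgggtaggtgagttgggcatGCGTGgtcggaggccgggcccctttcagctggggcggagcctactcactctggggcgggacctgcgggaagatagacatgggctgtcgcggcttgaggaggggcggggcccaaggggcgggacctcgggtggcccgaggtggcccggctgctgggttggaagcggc
ERO1L: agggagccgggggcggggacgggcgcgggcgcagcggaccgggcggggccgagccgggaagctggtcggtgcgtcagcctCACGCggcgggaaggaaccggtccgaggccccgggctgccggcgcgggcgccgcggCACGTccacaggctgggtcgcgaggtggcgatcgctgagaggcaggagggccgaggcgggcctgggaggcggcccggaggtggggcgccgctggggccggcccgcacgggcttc
ENO2: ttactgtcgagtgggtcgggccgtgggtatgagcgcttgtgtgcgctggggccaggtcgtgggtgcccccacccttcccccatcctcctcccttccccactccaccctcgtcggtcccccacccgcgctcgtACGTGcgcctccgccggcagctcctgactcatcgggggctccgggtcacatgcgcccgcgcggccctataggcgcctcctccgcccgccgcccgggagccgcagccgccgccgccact

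Each array had 58717 spots other than controls, of which between 67.6% and 73.6% were well above background and none was saturated, and all 4 arrays lay on 1 slide read in 1 scan. Signals are the scanner's background-subtracted values. For comparisons each log2 signal was set relative to the 75th percentile of its array, so a change in RNA per cell shared by all genes would not be seen, and fewer expressing cells cannot be told apart from less RNA per cell. The UNC50 probe read 5010 with shR-MOCK, 1050 under shR-467, 853 under shR-554 and 947 under shR-749, which after scaling was 24%, 13.7% and 18.7% of mock. Its mean log2 change was -2.45 ± 0.40 (SD, n = 3 hairpins). Of the 10 hepatocyte and hepatoma markers, all were above background on all arrays. Their summed scaled signal, in multiples of the 75th percentile, was 624 in mock and 661 to 793 with the hairpins. ALB and APOA2 made up most of that sum on every array, so it says little about the other markers. Among these 10 markers 4 had means at least 1.5-fold higher, FGB (1.75), AFP (0.91), TTR (0.81) and APOH (0.60 on the log2 scale). FGB and TTR were so with every hairpin. Of all genes above background on all 4 arrays, 2.34% had such a mean and 0.57% were so with every hairpin. Whether the higher marker signals bear on the members was not tested. For 10 markers of blood, endothelial and stromal cells the sum was 3.38 in mock and 2.87 to 3.85 with the hairpins. Of these, 5 were above background on every array, PTPRC, CD68, PECAM1, VWF and LUM. The brightest was CD68, with a signal of 3310 in mock, which made up most of the sum on every array. CD3E and COL1A2 were above background on some arrays, and COL1A1, COL3A1 and ACTA2 on none.

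No member reached a mean change of 1.5-fold upward, and of the 34 members above background on every array 1 did so downward, ERO1L, which lies outside glycolysis. EGLN3 was past 1.5-fold lower as well, but it passed the signal filter only through the mock array, where it was highest, so its direction was set by the filter and it is given as a description. Of the 37 members, 35 passed the filter for signal (above background either in mock or in all 3 knockdown samples) and 34 were above background on every array. The 2 left out were HK1, with signals of 4.29 in mock and 5.14 to 6.07 with the hairpins, and SLC2A3, with 18.3 in mock and 8.89 to 21.4, and neither gets a fold change. The 1.5-fold threshold is that of the study's methods and is a size, not a test. Among all 24902 genes tested, 2.28% had a mean at least 1.5-fold higher and 7.47% at least 1.5-fold lower, 9.75% in all, beside 0 and 2 of 35 members. The lower share holds many genes let in through the mock array alone, since among the 21233 genes above background on all 4 arrays 2.34% were higher and 2.87% lower, beside 0 and 1 of 34 members, and with the normexp background correction 253 and 282 of all genes were. With every hairpin past 1.5-fold the counts were 0 members in either direction, beside 0.534% of all genes higher and 1.18% lower, 1.71% in all, and 0.57% and 0.471% of those above background on all 4 arrays.

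limma called none of the members, whose adjusted p was 1 for each of the 35, and 0% of all genes, the smallest adjusted p being 0.625. At an unadjusted p under 0.05 it gave 377 genes (1.51%) and 0 members, and the methods' t-test gave 642 genes, 0 members, and 0 genes after adjustment. The lowest unadjusted limma p of a member was 0.083, for VEGFA. An exact permutation test of 1 array against 3 cannot give a p below 0.25. All directions below are therefore values, not calls.

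Most members stayed close to mock. With all 3 hairpins, 26 of the 35 (74.3%) lay within 1.5-fold of the mock array, against 65.5% of all genes, and among genes above background on every array the shares were 26 of 34 members (76.5%) and 74.1% of all. By group, among the 35, those within 1.5-fold were 15 of 17 enzymes, 11 of 16 other HIF targets and 0 of 2 transporters. The 16 include EGLN3, which lay outside 1.5-fold and was not well above background with shR-554. Every hairpin read above mock, by any amount, for 5 members, PFKL, PFKFB4, ENO1, CA9 and P4HA1, beside 17.6% of all genes. Every hairpin read below mock for 8, GPI, ENO2, SLC2A1, VEGFA, BNIP3L, EGLN3, ERO1L and MXI1, beside 20.5% of all genes, with EGLN3 subject to the filter as above. Those 8 were also below mock with every hairpin under the 4 other scalings tried. Of the 5 above mock only PFKL did not stay so, with median scaling and with the normexp background correction. The counts themselves moved. Below mock they were 10 to 11 members under those scalings, beside 20.5% to 21.4% of all genes. Above mock they were 4 to 6 members, beside 17.1% to 18.1%.

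**Figure D1:**
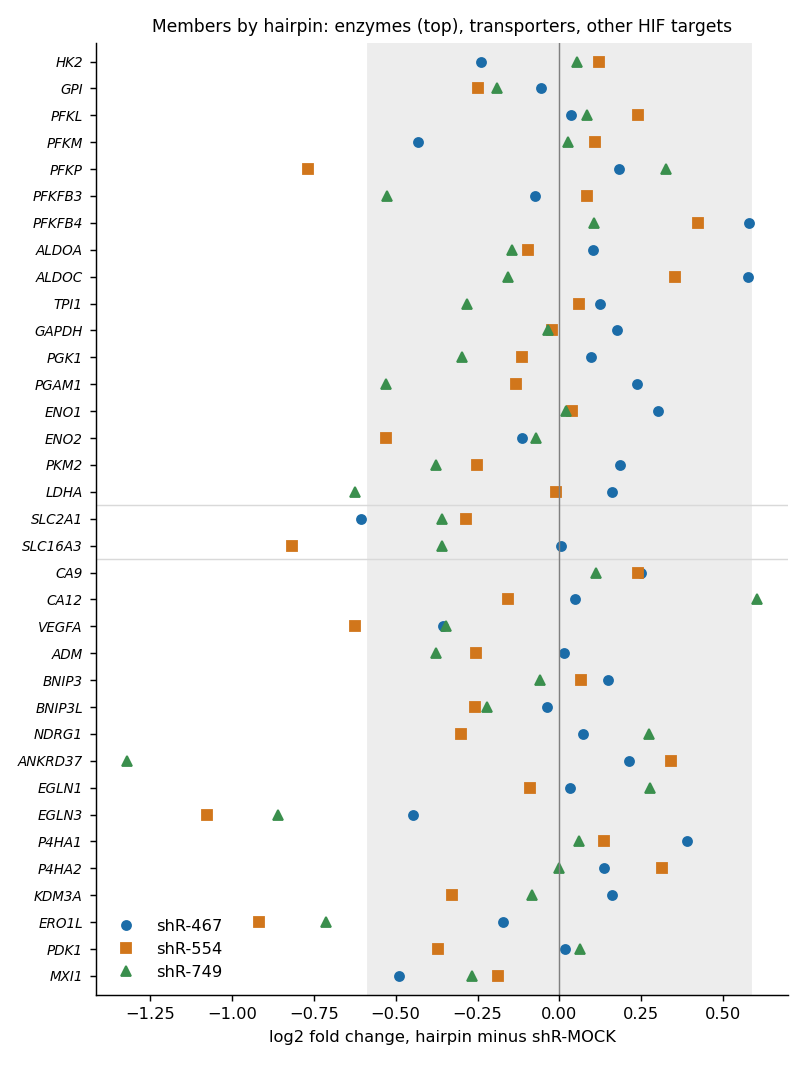
Log2 fold change against the mock array (x axis) for the 35 members that passed the signal filter, ordered by group, with 1 marker per hairpin (n = 1 array each) and a grey band spanning 1.5-fold either way. The 3 markers lie within the band for 26 members, and no member has all 3 outside it on 1 side.

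ERO1L and EGLN3, the members with mean values past 1.5-fold, act in oxidative protein folding and in oxygen sensing. ERO1L, the endoplasmic reticulum oxidase that recharges protein disulphide isomerase, had signals of 6770 with shR-MOCK, 5240 under shR-467, 4450 under shR-554 and 4160 under shR-749. All knockdown arrays were below mock, shR-467 least so. After scaling the hairpins stood at 88.7%, 52.9% and 61% of mock, with log2 changes of -0.17, -0.92 and -0.71 and a mean of -0.60 ± 0.39 (SD, n = 3; limma SE 0.30, unadjusted p = 0.0835, adjusted p = 1). The log2 signals of its 10 spots had an SD of 0.0434 to 0.0677 on each array, a measure of spot noise alone that leaves out culture and hybridisation. The mean was -0.44 without shR-554 and -0.82 without shR-467, so the 1.5-fold size (0.585 on the log2 scale) was not reached without shR-554, and it was also missed without shR-749.

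EGLN3 encodes the prolyl hydroxylase that is itself a strong HIF target. Its probe (hg19 chr14:34393422-34393481) was dim, with signals of 60.6 in mock and 38.8, 35.7 and 33.7 under shR-467, shR-554 and shR-749. Each knockdown signal was below mock, and that with shR-554 was not well above background. Relative to mock the log2 differences in signal were -0.45 with shR-467 and -0.86 with shR-749. The shR-554 signal gave -1.08, a difference from a value close to background, and the mean with it was -0.80 ± 0.32 (SD, n = 3, of which 2 arrays measured the probe; limma adjusted p = 1). With the normexp correction the mean was -0.26, so the size depends on how background is treated. Its paralog EGLN1, the main hydroxylase in most cells, had a mean of 0.07 ± 0.19 with signals from 2690 to 3680.

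**Figure D2:**
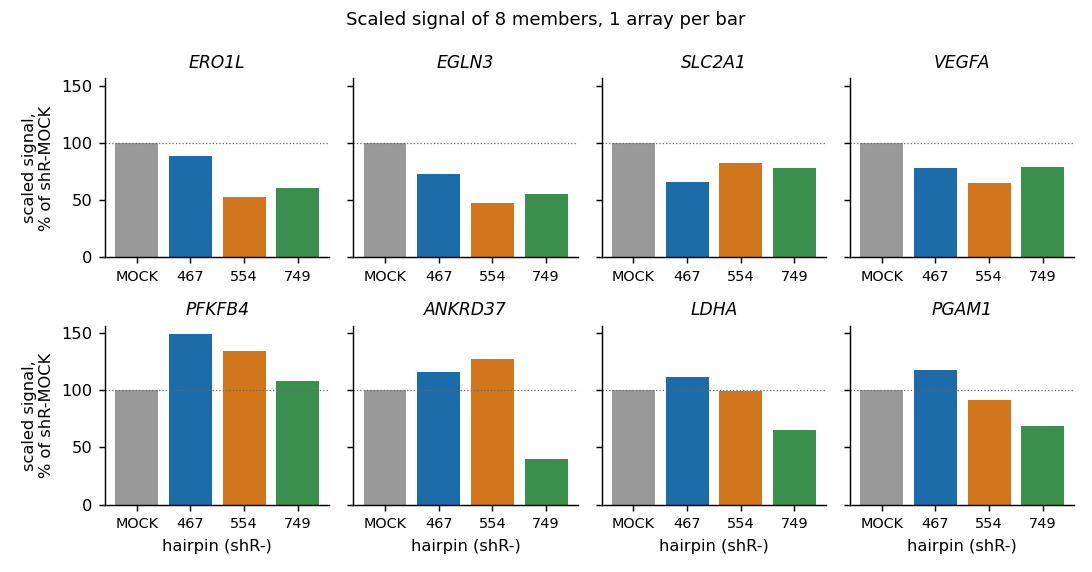
Scaled signal as a percentage of the mock array (y axis, linear, from 0) for 8 members, with 1 bar per array and a dotted line at 100%. ERO1L, EGLN3, SLC2A1 and VEGFA are below the line with every hairpin, PFKFB4 is above it with every hairpin, and ANKRD37, LDHA and PGAM1 are lowest with shR-749.

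At the entry to glycolysis the hexokinases trap glucose as glucose 6-phosphate. HK2, the inducible isoform of tumours, had signals of 4900 in mock, 3620 under shR-467, 6610 under shR-554 and 5130 under shR-749, and a mean log2 change of -0.02 ± 0.19. The array annotation places this HK2 probe on chromosome X, whereas RefSeq has HK2 on chromosome 2, so signal from a near-identical copy cannot be told apart from HK2. GPI, which converts glucose 6-phosphate to fructose 6-phosphate, had a mean of -0.17 ± 0.10 and was below mock with every hairpin.

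Phosphofructokinase commits the sugar to glycolysis, and its 3 isoforms had mean changes of 0.12 ± 0.11 (PFKL, the liver form), -0.10 ± 0.29 (PFKM) and -0.09 ± 0.59 (PFKP). The wide spread of PFKP came with a dim probe, 63.7 in mock and 46.4 to 80.5 with the hairpins. The bifunctional enzymes PFKFB3 and PFKFB4 set the level of fructose 2,6-bisphosphate, which activates phosphofructokinase. Of the enzymes, PFKFB4 (hg19 chr3:48555454-48555513) read furthest above mock. Its signals were 697 in mock, 909 under shR-467, 1160 under shR-554 and 757 under shR-749, for log2 changes of 0.58, 0.42 and 0.11 and a mean of 0.37 ± 0.24 (SD, n = 3; limma SE 0.27, unadjusted p = 0.206, adjusted p = 1). Every knockdown array was above mock, shR-749 by little. PFKFB3 had a mean of -0.17 ± 0.32 with its brighter probe and 0.35 ± 0.24 with its dimmer one, so its probes disagreed in sign.

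Aldolase, triose phosphate isomerase, glyceraldehyde 3-phosphate dehydrogenase and phosphoglycerate kinase carry the chain from fructose 1,6-bisphosphate to 3-phosphoglycerate. GAPDH, often used as a reference transcript, read 68300 in mock and 67400, 83500 and 67300 with the hairpins, a mean log2 change of 0.04 ± 0.12 that was -0.03 without shR-467. ALDOA was at -0.05 ± 0.13, TPI1 at -0.03 ± 0.22 and PGK1 at -0.11 ± 0.20. The TPI1 probe is placed on chromosome 1 by the array annotation and the gene on chromosome 12 by RefSeq, so here too a copy cannot be told apart. ALDOC, the brain-type aldolase, differed more between hairpins, with signals of 1890 in mock, 2460 under shR-467, 2990 under shR-554 and 1710 under shR-749, and a mean of 0.26 ± 0.38.

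In the last steps, mutase, enolase and pyruvate kinase yield pyruvate and LDHA reduces it to lactate. ENO1, the ubiquitous enolase, had a mean of 0.12 ± 0.16, and ENO2, the neuron-type enolase (hg19 chr12:7032482-7032541), was the enzyme furthest below mock. The ENO2 signals were 348 in mock, 281 under shR-467, 300 under shR-554 and 335 under shR-749, for a mean of -0.24 ± 0.25 (SD, n = 3; limma SE 0.30, unadjusted p = 0.45, adjusted p = 1). Most of it came from shR-554, at -0.53, and without that hairpin the mean was -0.09. PKM2 had a mean of -0.15 ± 0.30.

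LDHA and PGAM1, picked out after their values were seen, were low on 1 array. LDHA read 54100 in mock, 52800 under shR-467, 66600 under shR-554 and 35400 under shR-749. Only the shR-749 array lay below the others, at a log2 change of -0.62 against 0.16 and -0.01, and a dimmer LDHA probe, placed by the annotation on chromosome 9, gave -0.87 with the same hairpin. PGAM1 read 0.24, -0.13 and -0.53 under shR-467, shR-554 and shR-749. Its other probe, placed on chromosome 12 whereas this one is on chromosome 10, read 0.04, 0.29 and -0.58, so the probes shared the low shR-749 value but not the order of the other hairpins. Averaged over hairpins LDHA was at -0.16 ± 0.41 and PGAM1 at -0.14 ± 0.38, so neither mean exceeded the spread.

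Ranking the hairpins against each other does not use the mock value. The scaled signal was lowest with shR-749 for 11 of 17 enzymes (64.7%), against 34.9% of all genes, and highest with shR-467 for 11 of 17 (64.7%), against 42.8%. Both counts hold LDHA and PGAM1, which were picked for their values, and without them were 9 of 15 (60%) each. Among genes above background on all 4 arrays, as these enzymes are, the shares were 37.4% and 40.1%. Under the 4 other scalings 8 to 11 enzymes were lowest with shR-749, against 32.7% to 33.5% of all genes, and 9 to 11 highest with shR-467, against 35.9% to 37%. The other HIF targets were lowest with shR-554 in 9 of 16 (56.2%), against 37.3% of all genes and 33.1% of those above background on all 4 arrays. These shares describe 3 arrays, 1 for each hairpin, and whether they would return in other cultures was not tested.

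Both transporters that passed the filter had means below mock. SLC2A1 (GLUT1, hg19 chr1:43391874-43391933), the basal glucose importer, had signals of 1450 in mock, 831 under shR-467, 1470 under shR-554 and 1140 under shR-749. The raw shR-554 signal was close to mock on an array whose 75th percentile was higher, 1390 against 1120, and after scaling every hairpin was below mock, with log2 changes of -0.61, -0.29 and -0.36 and a mean of -0.42 ± 0.17 (SD, n = 3; limma SE 0.23, unadjusted p = 0.12, adjusted p = 1). SLC16A3 (MCT4, hg19 chr17:80197288-80197347), the lactate exporter of glycolytic cells, read 31500 in mock, 27600 under shR-467, 22200 under shR-554 and 24800 under shR-749. It was level with mock with shR-467 (0.01) and lower with shR-554 (-0.82) and shR-749 (-0.36), with a mean of -0.39 ± 0.41 (limma SE 0.30, unadjusted p = 0.23, adjusted p = 1). Without shR-467 the SLC16A3 mean was -0.59, past 1.5-fold.

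Among HIF targets for pH control and angiogenesis, CA9 read above mock and VEGFA below. CA9, the cell-surface carbonic anhydrase used as a hypoxia marker, was the furthest above mock of the 16 HIF targets among the members. Its signals were 572 in mock, 594 under shR-467, 837 under shR-554 and 624 under shR-749, for log2 changes of 0.25, 0.24 and 0.11 and a mean of 0.20 ± 0.08 (SD, n = 3; limma SE 0.23, unadjusted p = 0.415, adjusted p = 1). CA12, a related carbonic anhydrase, rested on 1 array, with 695 in mock and 627, 773 and 1060 with the hairpins, and was the single member at least 1.5-fold higher with any hairpin (shR-749, 0.60).

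VEGFA, the main angiogenic factor, read 2770 in mock, 1890 under shR-467, 2230 under shR-554 and 2200 under shR-749, a mean of -0.44 ± 0.16 (SD, n = 3; limma SE 0.22, unadjusted p = 0.083, adjusted p = 1). All hairpins were below mock, by -0.36, -0.62 and -0.35. A second VEGFA probe was below mock with every hairpin too, with a mean of -0.12 ± 0.11, so the size depends on the probe. ADM, the vasodilator peptide adrenomedullin, had a mean of -0.21 ± 0.20.

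The mitophagy receptors BNIP3 and BNIP3L differed little from mock, at 0.05 ± 0.11 and -0.17 ± 0.12, and a second BNIP3L probe gave -0.19 ± 0.12. The collagen prolyl hydroxylases P4HA1 and P4HA2 had means of 0.20 ± 0.17 and 0.15 ± 0.16, with 0.15 ± 0.17 from a second P4HA2 probe. PDK1, a pyruvate dehydrogenase kinase, was at -0.10 ± 0.24, the histone demethylase KDM3A at -0.09 ± 0.25 and the stress-induced NDRG1 at 0.02 ± 0.29. MXI1, a MYC antagonist, was below mock with every hairpin, at -0.32 ± 0.16, and its other probes gave -0.14 ± 0.25 and -0.51 ± 0.12.

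ANKRD37, an ankyrin-repeat protein gene induced by HIF, had the widest spread of all members. Its signals were 428 in mock, 433 under shR-467, 673 under shR-554 and 173 under shR-749, for log2 changes of 0.21, 0.34 and -1.32. The mean of -0.26 ± 0.92 thus rested on shR-749, and without that array it was 0.28. By hairpin, members at least 1.5-fold from mock numbered 1 with shR-467 (SLC2A1, lower), 5 with shR-554 (PFKP, SLC16A3, VEGFA, EGLN3 and ERO1L, all lower) and 5 with shR-749 (CA12 higher, LDHA, ANKRD37, EGLN3 and ERO1L lower). EGLN3 is in the shR-554 and shR-749 counts although its direction was set by the filter. With shR-554 it was not well above background, so it is not among the genes above background on all 4 arrays. The shares of all genes were 7.18% higher and 6.73% lower with shR-467, 4.39% and 15.5% with shR-554 (4.5% and 7.93% of genes above background on all 4 arrays), and 5.38% and 10.1% with shR-749.

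Set side by side, the enzymes and the other HIF targets did not separate beyond the spread between hairpins. The median log2 change of the 17 enzymes was 0.12 under shR-467, -0.01 under shR-554 and -0.15 under shR-749, and that of the 16 other HIF targets 0.04, -0.22 and -0.07. The difference, HIF targets minus enzymes, was -0.08, -0.21 and 0.07 in turn, a mean of -0.07 ± 0.14 (SD, n = 3) whose sign depended on the hairpin. Over the mean changes the medians were -0.09 for both groups and -0.03 for all genes. The ranges were -0.24 to 0.37 for the enzymes and -0.80 to 0.20 for the HIF targets. The value of -0.80 is that of EGLN3, whose direction was set by the filter, and the next lowest was ERO1L at -0.60. Without shR-554 the median of the HIF targets was 0.04. The 2 measurable transporters had a median of -0.40, which with 2 genes says little about a class.

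**Figure D3:**
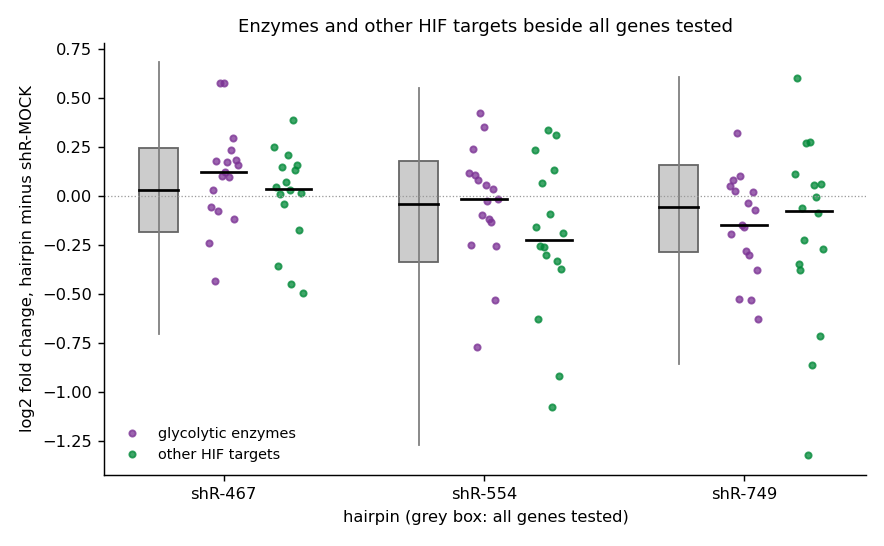
Log2 fold change against the mock array (y axis) by hairpin (x axis) for the 17 enzymes and 16 other HIF targets, each dot 1 gene and each black line a median, beside all 24902 genes tested (grey box, 25th to 75th percentile, whiskers 5th to 95th). Both groups overlap each other and the grey box on every array, and the lower of the 2 medians is that of the HIF targets with shR-467 and shR-554 and that of the enzymes with shR-749.

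The machinery that controls HIF gave no mean change past 1.5-fold among genes above background on every array. All 17 listed components passed the filter, with 0 at least 1.5-fold higher and 1 lower, beside 2.28% and 7.47% of all genes tested. The 1 was ARNT2, which was above background with shR-MOCK and shR-467 only. HIF1A, the alpha subunit, read 2260 in mock and 2040, 2140 and 1870 with the hairpins, a mean of -0.21 ± 0.23, and a second probe gave -0.29 ± 0.28. EPAS1, the other alpha subunit, had signals of 26800 in mock and 21700, 37100 and 22400 with the hairpins, and a mean of -0.07 ± 0.22. ARNT was at 0.14 ± 0.06 and VHL at 0.01 ± 0.10. Protein levels of HIF, through which oxygen acts, were not measured on these arrays.

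Of 40 further HIF targets 39 were on the array and 37 passed the filter. Of the 37, 2 were at least 1.5-fold higher and 0 lower, beside 2.28% and 7.47% of all genes tested. The median change of the 37 was 0.00. TMEM45A, a transmembrane protein gene, read 613 in mock, 932 under shR-467, 1730 under shR-554 and 857 under shR-749, all above mock, with a mean of 0.82 ± 0.36 (limma unadjusted p = 0.0335, adjusted p = 1). HMOX1, haem oxygenase, which oxidative stress induces as well, read 2610 in mock and 6230, 2960 and 5250 with the hairpins, a mean of 0.77 ± 0.81 that 2 of the 3 arrays carried and that was 0.43, under 1.5-fold, without shR-467. EPO, erythropoietin, the HIF target for which Hep3B cells are best known, was dim but above mock with every hairpin, 106 against 139, 148 and 158, with a mean of 0.43 ± 0.23 (limma unadjusted p = 0.238, adjusted p = 1).

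**Figure D4:**
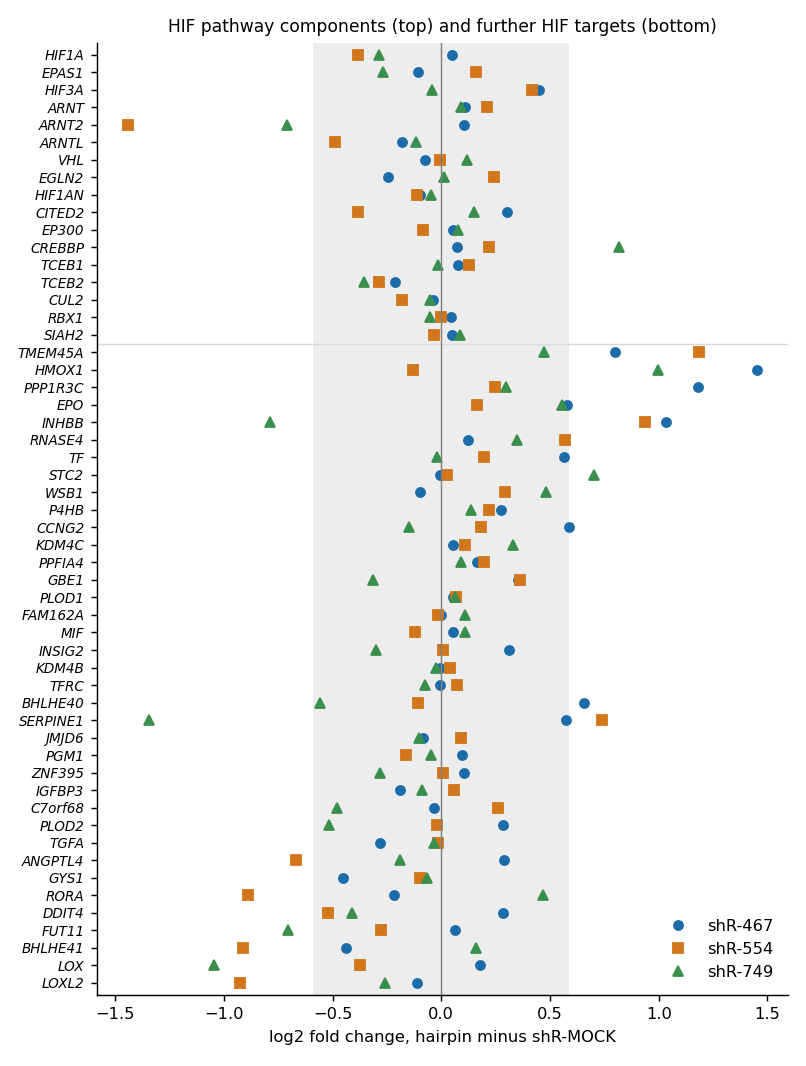
Log2 fold change against the mock array (x axis) for 17 HIF pathway components (top) and 37 further HIF targets (bottom, ordered by mean), with 1 marker per hairpin and a grey band spanning 1.5-fold either way. TMEM45A and HMOX1 have the highest means, 0.82 and 0.77, and most components of the HIF pathway lie within the band with every hairpin.

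Other genes of glucose and pyruvate use gave a like picture. Of 30 listed, 28 passed, with 1 at least 1.5-fold higher and 0 lower, beside 2.28% and 7.47% of all genes tested. The 1 was PFKFB1, the liver bifunctional enzyme, at 79.9 in mock and 126, 108 and 183 with the hairpins (mean 0.72 ± 0.55, limma adjusted p = 1). PFKFB1 fell short of 1.5-fold with normexp (0.45) and without shR-749 (0.49). LDHB, the lactate dehydrogenase subunit of oxidative tissues, was singled out after its values were seen, because the hairpins ran in opposite directions. Its signals were 194 in mock, 76 under shR-467, 235 under shR-554 and 398 under shR-749, for log2 changes of -1.16, -0.04 and 1.02, and a second probe ran in the same order. Of 7 gluconeogenesis genes 4 passed the filter, with 0 past 1.5-fold, beside 9.75% of all genes tested.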

How the data were processed

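Total RNA from 4 Hep3B samples was labelled with Cy3 and hybridised to 1-colour Agilent arrays of 60-base probes. Per the labels, the authors deposited Agilent Feature Extraction 10.7.1.1 output, in which each spot's intensity is background-subtracted, and a table of processed log2 values whose normalization is not named in the sources used here. Its columns have medians of 6.38 and follow quantile-normalized scanner values to within a median of 0.00101 to 0.00127, so scale and direction are those of the scanner signal. From the intensity, log2 values were taken relative to each array's 75th percentile, without 4259 control spots or spots marked as outliers, as means over a probe's spots. A probe was above background when more than 50% of its spots were. Genes above background either in mock or in all 3 knockdown samples were tested (24902). limma 3.58.1 in R 4.3.3 (lmFit, eBayes with trend, Benjamini-Hochberg over all genes) had 2 residual and 4.92 prior degrees of freedom, on the assumption that mock varies as much as the hairpins do. The 1.5-fold counts carry no test.

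The members, the further gene lists and the tests were chosen with earlier results of these data known. Named in full are members with a mean, or any pair of hairpins, past 1.5-fold and the highest and lowest of each group. Members of a step with several isoforms have a value each. Of the further lists HIF1A, EPAS1, ARNT, VHL, EPO and genes past 1.5-fold and above background on all arrays are named. Alternatives were quantile and median scaling, normexp with an offset of 50, the authors' log2 values, a floor, other filters, outlier spots kept, the mean over probes, a 2-fold threshold, limma without trend, the methods' t-test and each hairpin left out. Probe positions are the array's, on hg19. Of the genes tested 15266 matched a RefSeq symbol (GRCh38.p14), and all 37 members did. The steps were tested on simulated data. Signal over background limits precision, and the number of arrays limits it further.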

Additional observations from a re-analysis of the deposited data

How the results depend on the processing

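UNC50 stayed between -2.64 and -2.24 under all alternatives. Of the 527 comparisons of a single gene's mean with an alternative, 525 moved by less than the spread between hairpins. The exceptions were EGLN3 with normexp (-0.26) and VEGFA averaged over its probes (-0.28). For part of the 525 this was fixed in advance. Dropping 1 of 3 hairpins cannot move a mean by their SD, and a filter leaves it unchanged. Several members' means changed sign under an alternative, among them HK2 (-0.09 to 0.09), PGAM1 (-0.33 to 0.05) and ANKRD37 (-0.55 to 0.28). The group medians all moved by less than the spread between hairpins too. No value past 1.5-fold changed sign.

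The count of members with a mean at least 1.5-fold lower, 2 in the main setting, was 1 with normexp (ERO1L), 1 when only genes above background on all 4 arrays were kept (ERO1L) and 0 at 2-fold. Leaving out 1 hairpin gave 1 to 3, namely EGLN3 without shR-554, EGLN3 without shR-749, and EGLN3, ERO1L and SLC16A3 without shR-467. Members past 1.5-fold lower with every hairpin, 0 in the main setting, were 1 (EGLN3) with quantile normalization and with the authors' values, and 0 to 2 with a hairpin left out (EGLN3 and ERO1L without shR-467). Members at an unadjusted p under 0.05 numbered 0 to 1 with a hairpin left out (ERO1L without shR-467), and limma's smallest adjusted p of a member was 1 under all limma alternatives.

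Over all genes, means at least 1.5-fold higher numbered 568, and 253 with normexp, 1997 with no filter and 110 at 2-fold. Means at least 1.5-fold lower numbered 1859, and 282 with normexp, 974 with low signals raised to a floor, 610 with genes above background on all 4 arrays, 3368 with no filter, 551 at 2-fold and 1458 to 2805 with a hairpin left out. Genes higher with every hairpin numbered 133, and 60 with normexp, 274 with no filter, 31 at 2-fold and 243 to 323 with a hairpin left out. Genes lower with every hairpin numbered 294, and 83 with normexp, 173 with the floor, 100 with genes above background on all 4 arrays, 706 with no filter, 91 at 2-fold and 572 to 1272 with a hairpin left out. At an unadjusted p under 0.05, 377 genes became 715 with no filter, 642 with the methods' t-test and 416 to 694 with a hairpin left out. limma's adjusted calls, 0 in the main setting, were 4 with normexp and 0 to 1 with a hairpin left out (REG3A without shR-554). Without filter more genes are tested and with a hairpin left out fewer arrays must pass; for the other settings the cause was not tested.

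No paired analysis was possible because there was 1 mock array and the labels give no replicate numbers that groups share. A block for slide or scan was not run, since all arrays shared 1 of each. Dim members such as EGLN3 and PFKP lie close to background.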
